A study of Oryza sativa with 26 samples.

Results

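The 150 genes described here stepped up at each successive stage of lamina joint development in rice, among 17905 genes measured on the array. The lamina joint is the tissue that joins the blade of a leaf to its sheath, and its growth bends the blade outward. The members were chosen by their measured values. For each gene the group means of 3 leaf positions were averaged at stages 2, 4, 5 and 6, the smallest of the 3 successive changes was taken as a score, and the 150 genes with the highest score were kept. The stage values below are therefore a description of how the genes were selected, without a test. Of the members, 30 carry a descriptive gene name and 120 only a locus identifier, for which no role is given.

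All plants were Oryza sativa, japonica cultivar Zhonghua 11, grown in a greenhouse, and 26 arrays cover 13 groups of 2. Joints of the last leaf were sampled 60, 65, 70 and 80 days after sowing at stages 2, 4, 5 and 6, those of the second leaf at 55, 60, 65 and 75 days, and those of the third leaf at 50, 55, 60 and 70 days. Joints were pale and young at stage 2, mature with the blade still upright at stage 4, bending open at stage 5, and senescing and drying out at stage 6. The leaf control was green blade tissue of the third leaf, cut on day 55 when its joint was at stage 4. The labels name the 2 arrays of a group as biological replicates, with no word on separate plants, so p-values here reflect the spread between these arrays alone, and the number of arrays limits the precision. The tissue was cut by hand and holds several cell types. More cells of a type and more RNA per cell cannot be told apart in any value below.

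Senescence in a plant organ is an ordered process in which proteins, membrane lipids and nutrients are broken down and exported before the cells die. Lipoxygenases act on the fatty acids that membranes release, and part of their product flows into jasmonate, a hormone of defence and ageing. NAC proteins are plant transcription factors, several of which are known as regulators of leaf senescence, and transporters of nitrogen and metals take part in the recovery of nutrients. Auxin and brassinosteroid are the hormones best known for setting the leaf angle through the lamina joint.

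Values are log2 expression, on which a difference of 1 is a 2-fold change. Over the 150 members, the median level read on single joint arrays lay between 4.49 and 5.68 at stage 2, between 6.78 and 7.37 at stage 4, between 7.16 and 8.82 at stage 5 and between 8.72 and 9.56 at stage 6. In this median the arrays of stage 2 stood apart from all others. Stages 4 and 5 overlapped through 1 array of the second joint at stage 5, and stages 5 and 6 through the last joint at stage 5 and the third joint at stage 6. The members started dim. At stage 2, 74 of them had a mean below the middle of the array, against 10 at stage 4, 2 at stage 5 and 0 at stage 6. Of all genes, 15.9% to 16.8% were below the middle of the array at these stages. The median of all genes stayed between 8.43 and 8.54 over the same stages.

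The difference of stage 6 over stage 2 had a median of 3.83 among the members, and ran from 1.80 to 8.96. Since many members read below the middle of the array at stage 2, these differences are given on the log2 scale and not as folds. The median steps were 1.70 from stage 2 to 4, 0.88 from stage 4 to 5 and 0.94 from stage 5 to 6. The first step was the largest of the 3 in 106 members, the last in 32 and the middle one in 12. By the call used below (limma adjusted p under 0.05 over all probe sets and at least 2-fold), a rise was called in 122 members from stage 2 to 4, where 11.2% of all genes were called rising. The count was 38 from stage 4 to 5, against 0.676% of all genes, and 58 from stage 5 to 6, against 1.68%. These counts follow from the selection and nothing is read from them.

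**Figure D1:**
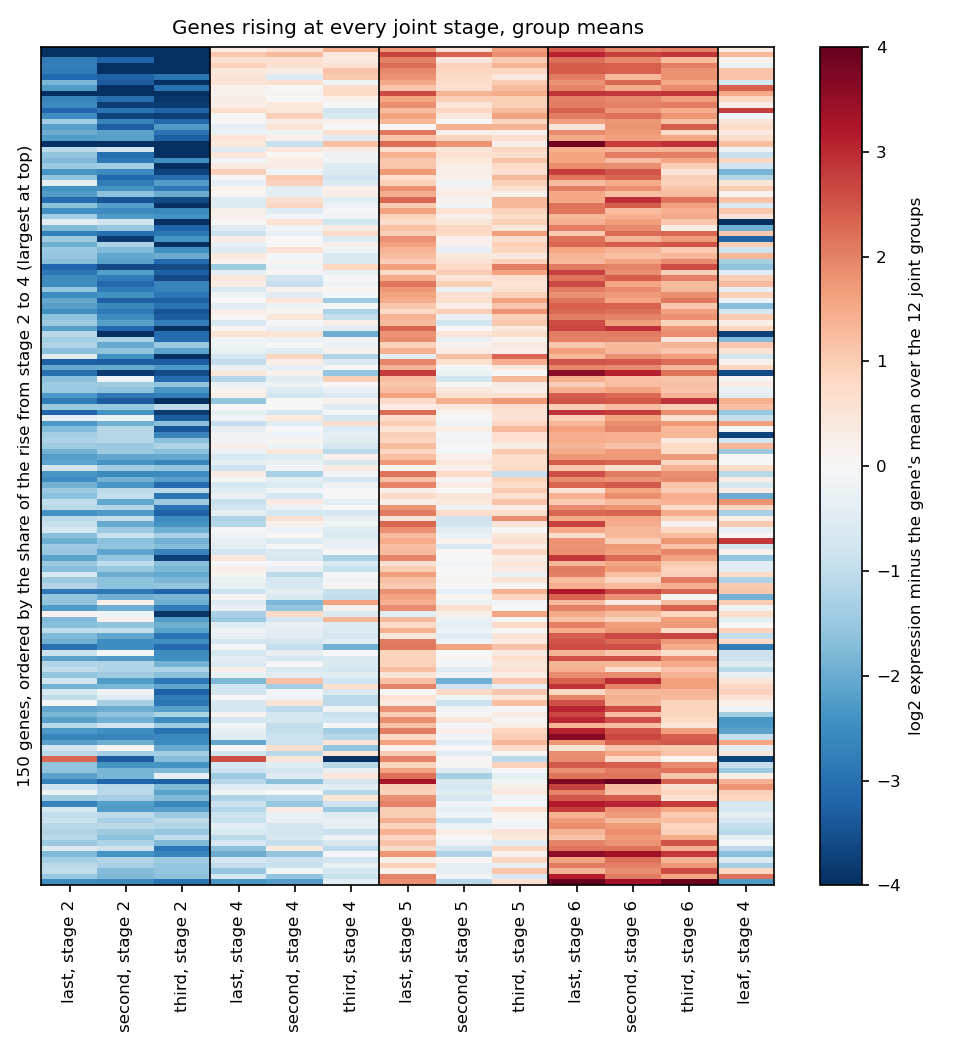
Group means of the 150 genes in the 12 joint groups and the leaf, as log2 expression minus the gene's mean over the joint groups (colour, cut at -4 and 4). Rows are genes ordered by the share of their rise that fell between stages 2 and 4. Columns are grouped by stage, and blue turns to red from left to right in most rows, while the leaf column mixes both colours.

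Within the leaf positions the order of stages was kept less strictly. Of the 9 steps within positions, all were above 0 in 78 members, 8 in 49 members and 7 or fewer in 23, with a lowest count of 5. Among all genes, 279 had 9 of 9 steps above 0, or 1.56%. The members' scores ran from 1.88 for CM-LOX1 to 0.56 for MADS15, and 28 reached 1. The boundary was not a gap: the score was 0.557 for LOC4324757 and 0.556 for MADS15, the last genes inside, and it was 0.553 for both LOC4325572 and LOC4336001, the next genes outside.

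The gene with the highest score was a lipoxygenase. In what follows, 3 values for a stage are the lowest, the median and the highest of its 6 joint arrays. CM-LOX1 (LOC4345993), an enzyme that adds oxygen to polyunsaturated fatty acids, read 3.22, 3.59 and 3.97 at stage 2, 4.49, 5.54 and 6.26 at stage 4, 4.41, 7.63 and 10.31 at stage 5, and 8.95, 10.13 and 11.03 at stage 6. Its stage 2 arrays lay below all others, stage 5 overlapped with both of its neighbours, and stages 4 and 6 did not overlap. The lowest stage 5 array, at 4.41, was of the second joint, and the highest, at 10.31, was of the last joint. At stage 5 the last joint averaged 9.99, against 6.08 in the second joint and 6.57 in the third. Its stage 6 mean exceeded its stage 2 mean by 6.42.

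CM-LOX2 (LOC4345994), a second lipoxygenase, lies directly beside CM-LOX1 on chromosome 8 with no gene between them in the RefSeq order. It read 3.16, 4.46 and 5.42 at stage 2, 6.76, 7.26 and 7.61 at stage 4, 6.68, 8.4 and 10.07 at stage 5, and 8.69, 9.97 and 10.76 at stage 6. Unlike its neighbour, it took its largest step, 2.88, between stages 2 and 4. AOS2 (LOC4332121), the allene oxide synthase that turns a lipoxygenase product into the precursor of jasmonate, read 5.38, 5.91 and 6.01 at stage 2 and 9.49, 10.78 and 11.18 at stage 6. Its stage 2 and stage 4 arrays did not overlap, with stage 4 between 7.24 and 9.64. The jasmonate list held 36 measured genes, found by symbol, of which these 3 were members and 4 (11.1%) had all steps above 0, against 17.9% of all genes. The fourth was OPR-1, an oxophytodienoate reductase by name, with steps of 0.19, 1.02 and 0.78. Of the other genes named as allene oxide synthases, AOS had stage means between 11.77 and 11.98, and AOS3 and AOS4 had none above 4.0. Most measured jasmonate genes did not share the stepwise pattern.

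Among enzymes of metabolism, ASMT1 (LOC4346795), named for N-acetylserotonin methyltransferase, which makes melatonin, had the largest difference of any named member. It read 4.07, 4.45 and 4.86 at stage 2, 7.70, 9.55 and 11.21 at stage 4, 9.37, 10.84 and 12.45 at stage 5, and 11.38, 12.77 and 13.30 at stage 6, with a difference of 8.05 between the end stages. Only stage 2 was free of overlap with its neighbour, and the third joint averaged 9.59 at stage 5 after 10.52 at stage 4. Of all members, LOC4324873 had the largest difference, 8.96. Its arrays lay between 4.00 and 5.37 at stage 2, between 10.77 and 12.47 at stage 4, between 12.48 and 13.74 at stage 5 and between 13.40 and 14 at stage 6. Most of its difference lay between stages 2 and 4.

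CYP76M7 (LOC4341447), a cytochrome P450 of the diterpenoid phytoalexin pathway, read 3.26, 3.73 and 4.21 at stage 2, 5.05, 6.82 and 9.23 at stage 4, 7.93, 8.83 and 9.30 at stage 5, and 9.0, 9.33 and 9.94 at stage 6. Stage 4 was its most scattered stage, with the last joint at a mean of 5.75 and the third at 8.01. Of 17 diterpenoid genes measured, 9 (52.9%) had all 3 steps above 0, against 17.9% of all genes. CYP76M7 was the sole member among them, and the others missed the score mainly through a small first or last step: KS10 had steps of 0.91, 3.24 and 0.47, and CPS4 steps of 0.97, 3.21 and 0.14. AOX1a (LOC4336874), the mitochondrial alternative oxidase, averaged 5.14 in the third joint at stage 2 and 9.89 at stage 6, with a smaller span in the last joint, from 6.84 to 10.22. UGE-3 (LOC4347638), a UDP-glucose epimerase, and BGLU22 (LOC4338560), a beta-glucosidase by name, had stage 6 over stage 2 differences of 4.43 and 3.75.

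Of 8 members named as transporters or as proteins of metal and nutrient handling, NAAT1 (LOC9267778), the nicotianamine aminotransferase of phytosiderophore synthesis, was the brightest. It read 3.25, 7.45 and 10.32 at stage 2, 8.88, 10.51 and 11.16 at stage 4, 10.06, 11.27 and 11.96 at stage 5, and 12.54, 12.70 and 13.07 at stage 6. Stage 6 lay above every earlier array. The wide stage 2 range came from the leaf positions: both arrays of the third joint, at 3.25 and 3.97, were far below the last joint (9.55 and 7.17) and the second joint (10.32 and 7.74).

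DUR3 (LOC4349520), a transporter of urea, read 3.33, 3.97 and 5.08 at stage 2, 7.09, 7.82 and 7.97 at stage 4, 7.42, 8.47 and 9.42 at stage 5, and 9.05, 9.53 and 9.86 at stage 6. Its stage 2 arrays were separate from all later ones, and later stages overlapped in part. AMT3-3 (LOC4329628), an ammonium transporter, went from 3.84, 3.99 and 4.22 at stage 2 to 7.51, 8.04 and 8.72 at stage 6. The list of nitrogen and phosphate genes was matched by symbol and holds AMT3-3 but not DUR3. Of its 34 measured genes, 10 (29.4%) had all steps above 0, against 17.9% of all genes, and 1 was a member. These 10 include Osnph1a and Osnph1b, which the symbol match took in although their names do not mark them as nitrogen or phosphate genes. The share is thus that of the matched symbols and not of the class.

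MT1B (LOC4332487), a metallothionein that binds metal ions, took its largest step at the end. It read 3.72, 4.7 and 5.44 at stage 2, 5.95, 6.97 and 7.85 at stage 5, and 8.86, 9.41 and 10.24 at stage 6, so that stage 6 was separate from stage 5. In the metal list, 14 of 43 measured genes (32.6%) had all steps above 0, against 17.9% of all genes, and MT1B was the member. ABCG48 (LOC4350807), an ABC transporter of subfamily G, read 3.79, 4.47 and 4.88 at stage 2, 5.19, 6.12 and 6.95 at stage 4, 6.79, 7.90 and 9.26 at stage 5, and 7.66, 9.76 and 10.26 at stage 6. Its steps were 1.66, 1.94 and 1.39, and each pair of successive stages overlapped only from stage 4 on. PIP1-3 (LOC4331194), a plasma membrane aquaporin, MRS2-E (LOC4324927), a magnesium transporter, and ABCG37 (LOC4327730), of the same ABC subfamily, had differences of stage 6 over stage 2 of 4.63, 3.81 and 2.38.

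**Figure D2:**
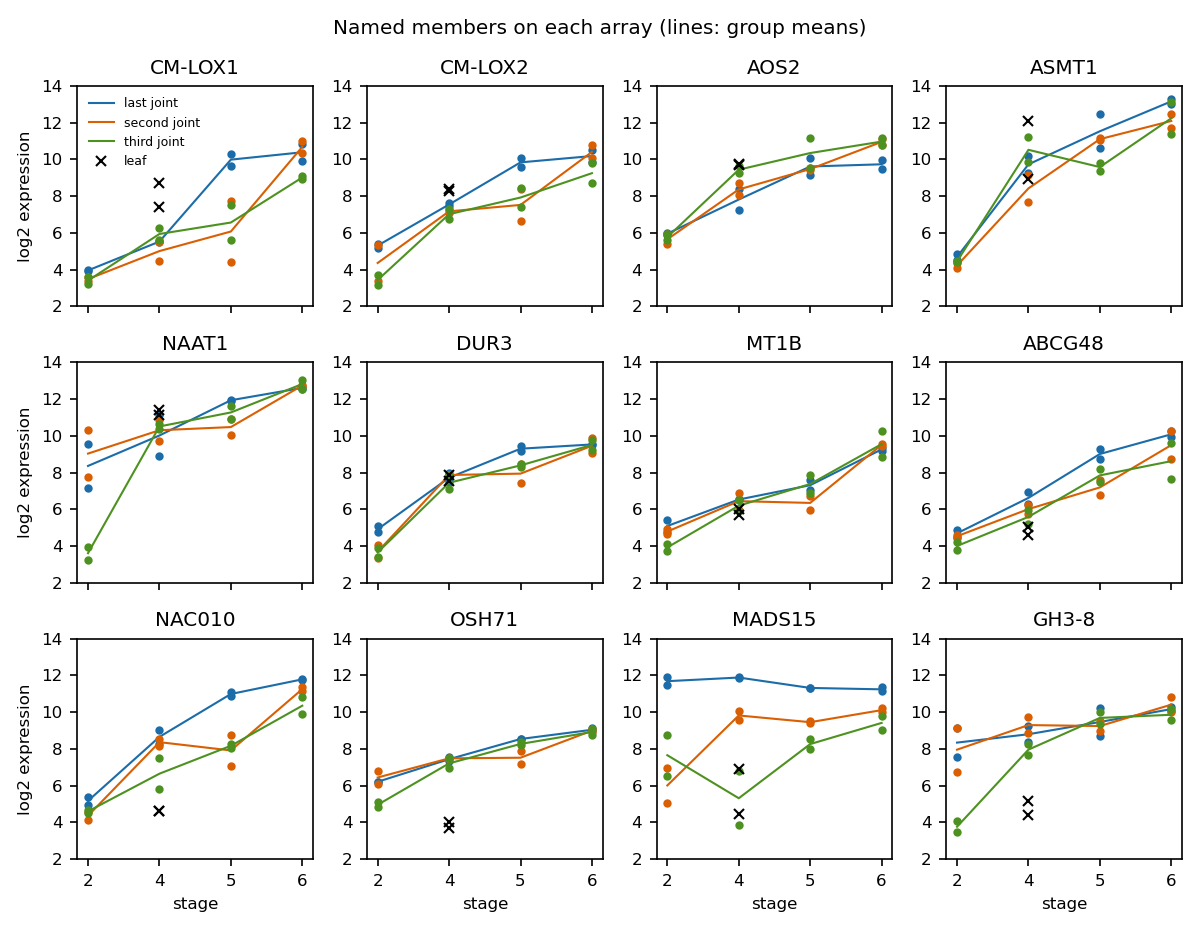
Log2 expression of 12 named members on each joint array by stage (points, 2 per group), coloured by leaf position, with lines through group means and crosses for the 2 leaf arrays. NAAT1 and GH3-8 start low in the third joint alone, and MADS15 stays between 11.1 and 11.9 on all arrays of the last joint.

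The members included 5 named transcription factors. NAC010 (LOC4343630), of the NAC family, read 4.13, 4.64 and 5.39 at stage 2, 5.80, 8.22 and 9.05 at stage 4, 7.06, 8.53 and 11.09 at stage 5, and 9.88, 11.26 and 11.81 at stage 6, a difference of 6.42 between the end stages. Stage 2 did not overlap with stage 4, but stage 5 overlapped with both of its neighbours. NAC45 (LOC4349650) went from 4.81, 4.94 and 5.25 at stage 2 to 7.28, 8.43 and 8.57 at stage 6, with no overlap of these stages. Of 8 NAC genes matched by symbol, 3 (37.5%) had all steps above 0, against 17.9% of all genes. NAC010 and NAC45 had this by the selection, and the other was NAC048, with steps of 1.33, 0.18 and 0.50.

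OSH71 (LOC4337701), a KNOX homeobox gene of a family known from meristems, read 4.83, 6.16 and 6.77 at stage 2, 6.94, 7.46 and 7.55 at stage 4, 7.16, 8.27 and 8.54 at stage 5, and 8.77, 9.01 and 9.13 at stage 6. Stage 2 and stage 6 were each separate from all other stages. MADS1 (LOC4332059), a gene of floral organ identity, read 3.92, 4.17 and 4.53 at stage 2 and 6.64, 7.0 and 8.44 at stage 6. It was the one member among 13 floral MADS genes used as markers of panicle tissue, whose summed level lay between 11.1 and 12.3 on all joint arrays. MADS15 (LOC4342214), of the group that marks the switch to flowering, entered as the last of the 150, and its pattern differed between positions.

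GH3-8 (LOC4343785), an enzyme that joins auxin to amino acids and so removes it from the active pool, read 3.46, 7.16 and 9.16 at stage 2, 7.66, 8.63 and 9.71 at stage 4, 8.71, 9.42 and 10.23 at stage 5, and 9.56, 10.11 and 10.82 at stage 6. The stages overlapped throughout, and the 2 lowest stage 2 values, 3.46 and 4.06, were those of the third joint. GH3.6 (LOC4337780), of the same family, read 5.13, 5.57 and 6.19 at stage 2 and 7.0, 8.41 and 8.77 at stage 6. Its smallest step was the first, 0.61. The kinases MPK13 (LOC4328223), a mitogen-activated protein kinase, and CRK10 (LOC4343501), a cysteine-rich receptor-like kinase, had differences of 3.15 and 4.22. The remaining named members were HSP24.1 (LOC4330786), a small heat-shock protein, KIN14M (LOC4341280), a kinesin, U2AF35A (LOC9268567), a splicing factor subunit, OsCASPL1U2 (LOC4351034), a CASP-like membrane protein, and cap2 (LOC4331843), and their differences ran from 3.02 to 4.37.

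The genes of highest score without a descriptive name followed the same course. LOC4341093, at rank 2, read 3.29, 3.68 and 3.78 at stage 2, 4.86, 6.19 and 6.53 at stage 4, 5.91, 7.97 and 8.61 at stage 5, and 8.89, 9.22 and 9.98 at stage 6. LOC4352906, LOC4332717, LOC4346124, LOC4335749, LOC4343505 and LOC4345477 filled ranks 3, 4, 5, 7, 8 and 10, with stage 6 over stage 2 differences of 5.49, 5.52, 4.46, 5.62, 4.41 and 4.33. Between them stood ABCG48 at rank 6 and cap2 at rank 9. Each of these 7 loci had at least 8 of 9 steps above 0.

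Of 24 lists of genes found by symbol, 11 held a member and 13 members were in any list. The lists had from 4 to 75 measured genes, and the share of all genes in any list was not counted. Among lists of growth genes, 1 of 29 expansins, the wall-loosening proteins, and 0 of 9 cellulose synthases had all steps above 0, with no member in either. The list of cyclins and kinesins had 5 of 67 genes (7.46%) with all steps above 0 and held KIN14M as a member. Chlorophyll breakdown, a textbook mark of senescence, had 4 measured genes and 0 members, although 2 of the 4 (50%) had all steps above 0, against 17.9% of all genes. OsRCCR1 had stage means from 8.38 to 9.96, SGR from 11.44 to 11.96, and NYC1 took a first step of 1.15 and then steps of -0.03 and -0.11.

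Some members are neighbours in the genome. In the RefSeq gene order, which places all members but 1, 9 pairs had at most 4 genes between them and 3 pairs had none. How many such pairs other sets of array genes have was not counted, so nothing is read from these numbers. Beside the lipoxygenase pair, AOX1a stood next to LOC4336875 on chromosome 4, and LOC4349181 stood next to LOC4349185 on chromosome 10, with LOC4349188 following after 1 further gene. No probe set of these 3 adjacent pairs was of the type that the array's naming marks as shared between related sequences. That type represented 11 of the 150 members and 11.3% of all genes. Among the pairs with genes between, LOC4343505 near CRK10 and LOC4337100 near LOC4337103 were on such probe sets. Its part in the values was not tested.

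Another probe set was available for 15 members. Of these 23 further probe sets, which the selection did not use, 18 had all 3 steps above 0, against 17.9% of all genes, but their median score was 0.107, below the lowest member score of 0.556. All 9 with a mean level of at least 6 had all 3 steps above 0, as did 9 of 14 dimmer ones. These probe sets read the selected genes on the same arrays that chose them, so the counts carry no test.

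The samples can also be lined up by day, since joints of different positions were cut on the same day at different stages. On day 60, when the last joint was at stage 2, the second at stage 4 and the third at stage 5, the members' median levels were 5.52, 7.27 and 8.16. On that day 144 members were in stage order, or 96.0%, against 31.5% of all genes. On day 55 the count was 142 (94.7%), against 55.7% of all genes, and on day 65 it was 119 (79.3%), against 34.6%. On day 70 the last joint at stage 5 and the third at stage 6 had median levels of 8.77 and 8.96, and 83 members, or 55.3%, were in stage order, near the 50.3% of all genes. These arrays were used in the selection, so the counts carry no test.

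The leaf arrays were not used in the selection, although the third joint arrays of stage 4 that they were compared with were. Against the leaf, 14 members were called higher in the joint (limma, adjusted p under 0.05 and at least 2-fold), or 9.33%, where 7.6% of all genes were called. A further 21 members, 14%, were called lower in the joint, against 6.54% of all genes. Of 1877 other genes called rising from stage 2 to 4, 167 or 8.9% were called higher in the joint and 211 or 11.2% lower. The median joint minus leaf difference was -0.17 among the members and 0.02 among all genes. Without replicate 1 of the third joint 19 members were called in all, without leaf replicate 1 there were 21 and without leaf replicate 2 there were 23. LG1, a gene known for making the ligule and joint, read 7.52 to 9.89 on the joint arrays and 5.84 and 6.03 on the leaf arrays, so that no leaf array reached a joint array.

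OSH71 had the largest excess in the joint. It read 6.94 and 7.48 in the third joint and 4.04 and 3.71 in the leaf, a difference of 3.33 (SE 0.24, limma adjusted p = 2.32e-07, n = 2 and 2). The groups were far apart, and the leaf was lower than every joint array of any stage. The KNOX family as a whole did not share this. The summed level of its 9 measured genes was 14.1 to 14.4 in the leaf and 12.6 to 13.8 on the joint arrays. Of these 9, 2 were called higher in the joint and 0 lower. LOC4331342 read 6.82 and 7.38 against 3.96 and 4.89, a difference of 2.67 (SE 0.51, limma adjusted p = 0.00226). GH3-8 read 8.26 and 7.66 against 5.18 and 4.42, a difference of 3.16 (SE 0.68, limma adjusted p = 0.00547). The leaf values of GH3-8 lay near the third joint's stage 2 values of 3.46 and 4.06.

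CYP76M7 read 6.8 and 9.23 in the joint and 4.59 and 6.58 in the leaf, and NAC010 read 7.50 and 5.80 against 4.61 and 4.61. LOC4327653 read 7.21 and 6.28 against 4.63 and 4.30. These 3 genes were called at differences of 2.43, 2.04 and 2.28 (limma adjusted p = 0.0185, 0.0136 and 0.0118), but single arrays decided the calls. Without replicate 2 of the third joint the CYP76M7 difference was 1.21 and without leaf replicate 1 it was 1.43, with adjusted p = 0.265 and 0.28. Without replicate 1 of the third joint the NAC010 difference was 1.19 and that of LOC4327653 was 1.81, with adjusted p = 0.236 and 0.141. Leaving out a leaf array also ended the call of NAC010 (replicate 1, adjusted p = 0.0737, and replicate 2, adjusted p = 0.0695), of LOC4327653 (replicate 2, adjusted p = 0.0849) and of GH3-8 (replicate 2, adjusted p = 0.0612), and GH3-8 was also lost without replicate 1 of the third joint (adjusted p = 0.0596).

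Among the members lower in the joint, the 5 largest differences were those of genes without a descriptive name. LOC9266201 read 5.69 and 6.61 in the joint and 9.83 and 9.49 in the leaf, a difference of -3.51 (SE 0.30, limma adjusted p = 9.99e-07). LOC4336683 read 4.10 and 5.67 against 7.89 and 8.28, a difference of -3.20 (SE 0.40), and LOC4340717 read 4.78 and 5.12 against 8.21 and 7.80, a difference of -3.05 (SE 0.34). For LOC4336683 and LOC9266201 the leaf exceeded every joint array of all stages. LOC4348546 and LOC4347530 differed by -2.23 and -2.16. Of the named members, AMT3-3 differed by -1.14 and UGE-3 by -1.99 (limma adjusted p = 0.00967 and 0.0255). The AMT3-3 call was lost without replicate 1 of the third joint (-0.84, adjusted p = 0.144) or leaf replicate 1 (-0.91, adjusted p = 0.123), and the UGE-3 call without replicate 2 of the third joint (-1.47, adjusted p = 0.205) or leaf replicate 1 (-1.08, adjusted p = 0.353).

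Set on the third joint's own course, the leaf lay below the joint's stage 2 mean in 7 members, between stages 2 and 4 in 58, and at or above stage 4 in 86. MADS15, whose mean in the third joint was lower at stage 4 than at stage 2, is counted in both the first and the last of these. It reached the stage 5 mean in 42 members and the stage 6 mean in 14. The members' median level was 7.26 in the leaf, against 4.55, 6.91, 8.16 and 8.96 in the third joint at stages 2, 4, 5 and 6. The 5 light-harvesting genes that mark green leaf had a summed level of 15.1 to 15.2 in the leaf and of 11.6 to 14.4 on the stage 4 joint arrays, and 3 of the 5 were called lower in the joint. Their part in the members' leaf values was not tested.

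**Figure D3:**
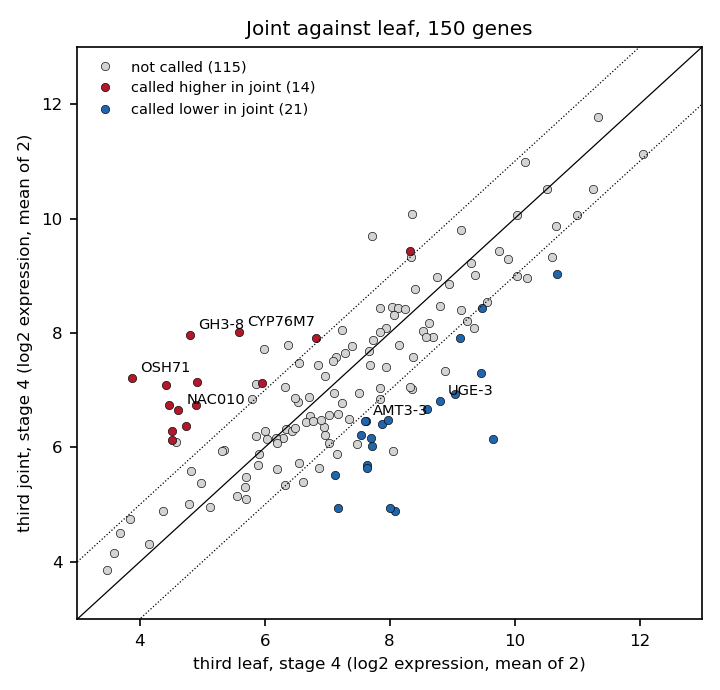
Mean log2 expression of each of the 150 genes in the third joint (vertical) and in the third leaf (horizontal), both at stage 4, 2 arrays each. The solid line marks equal levels and the dotted lines a 2-fold difference, with the 14 genes called higher in the joint in red and the 21 called lower in blue.

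Leaf positions were compared over the mean of the 4 stages, a contrast that the selection did not use. Most members had a higher value in the last joint than in the third. The difference of the last over the third joint had a median of 0.51 among the members and 0.003 among all genes. It was above 0 in 131 of the 150 members and in 9053 of all 17905 genes. It was called in 19 members (limma, as above), or 12.7%, where 1.57% of all genes were called higher in the last joint. No member was called lower (0 of 150, against 0.732% of all genes). At an unadjusted limma p under 0.05, 7 members were lower, where 14.6% of all genes were lower. The 1877 other genes called rising from stage 2 to 4 were shifted the same way, with a median of 0.34 and 1484 above 0. Of these 1877 genes, 169 or 9.0% were called higher in the last joint. Without replicate 1 of the third joint at stage 6 the count of 19 was 11. At every stage the last joint was cut 10 days later after sowing than the third, so position and days after sowing cannot be told apart.

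By stage, the median difference of the last over the third joint among the members was 0.59 at stage 2, 0.004 at stage 4, 0.69 at stage 5 and 0.48 at stage 6. At stage 4 members lay on both sides of 0, with 76 of 150 above it, and single genes still differed, such as MADS15 with group means of 11.89 and 5.31. At the other stages 116 to 134 members were above 0.

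MADS15 had the largest difference between positions. It read 11.46 and 11.92 at stage 2, 11.85 and 11.93 at stage 4, 11.34 and 11.30 at stage 5, and 11.35 and 11.14 at stage 6 in the last joint. In the third joint it read 8.77 and 6.54, then 6.77 and 3.85, then 7.99 and 8.54, and at stage 6 9.78 and 9.05. The last joint was thus high from the youngest stage on, with group means between 11.24 and 11.89, and no array of the other positions reached it. The difference was 3.87 (SE 0.43, limma adjusted p = 0.000151) against the third joint and 2.68 (adjusted p = 0.00791) against the second. With 5 of 9 steps above 0, MADS15 had the lowest count of any member, and its place among them came from the other positions.

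NAC010 was higher in the last joint by 1.71 (SE 0.25, limma adjusted p = 0.00108), with group means of 5.17, 8.65, 10.99 and 11.79 in the last joint and 4.6, 6.65, 8.17 and 10.35 in the third over the 4 stages. LOC4339274 differed by 1.56 (SE 0.17, limma adjusted p = 0.000133) and LOC4330358 by 1.42 (SE 0.16, limma adjusted p = 0.00013). CM-LOX2 differed by 1.31 (SE 0.29, limma adjusted p = 0.014), with 5.31, 7.55, 9.84 and 10.19 in the last joint and 3.43, 7.02, 7.93 and 9.25 in the third. These 4 genes and MADS15 kept the call when any single array was left out.

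Other calls of the last against the third joint were less firm. LOC4345562 differed by 1.55 and lost its call without any 1 of 6 arrays (1.40 to 1.49, highest limma adjusted p = 0.0634). GH3-8 and ABCG48 differed by 1.38 and 1.09 and were each lost without any 1 of 8 arrays, and ABCG37 differed by 1.01 and was lost without any 1 of 9. CM-LOX1 had a difference of 1.23 that was not called (limma adjusted p = 0.0804). AOS2 had a difference of -0.85, which passed the adjusted p (0.0365) but not the 2-fold limit.

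Against the second joint, the last joint was called higher in 5 members, or 3.33%, against 0.296% of all genes. Of the 1877 other genes called rising from stage 2 to 4, 25 or 1.33% were called higher. No member was called lower (0 of 150, against 0.101% of all genes). At an unadjusted limma p under 0.05, 3 members were lower, where 6.34% of all genes were lower. The 5 called members were MADS15, LOC4331342 with a difference of 1.29, NAC010 with 1.18, LOC4340717 with 1.08 and LOC4330358 with 1.03 (limma adjusted p from 0.00599 to 0.0382). Only MADS15 kept its call when any single array was left out. Without replicate 2 of the last joint at stage 2, or without replicate 1 of the second joint at stage 6, 1 member was called. Without any 1 of 6 other arrays 2 or 3 members were called, and without replicate 2 of the second joint at stage 5 there were 8. The second joint was called higher than the third in 3 members, GH3-8, ABCG37 and LOC4342895 (1.41, 1.14 and 1.0). This was 2% of the members, against 0.559% of all genes. Among the 1877 other genes called rising from stage 2 to 4 the share was larger, with 56 or 2.98%. No member was called lower in the second joint (0 of 150, against 0.14% of all genes). At an unadjusted limma p under 0.05, 12 members were lower, where 14.6% of all genes were lower. Each of the 3 calls was lost in at least 8 of the 26 fits that left out 1 array, and 6 of those fits called 0 members higher.

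**Figure D4:**
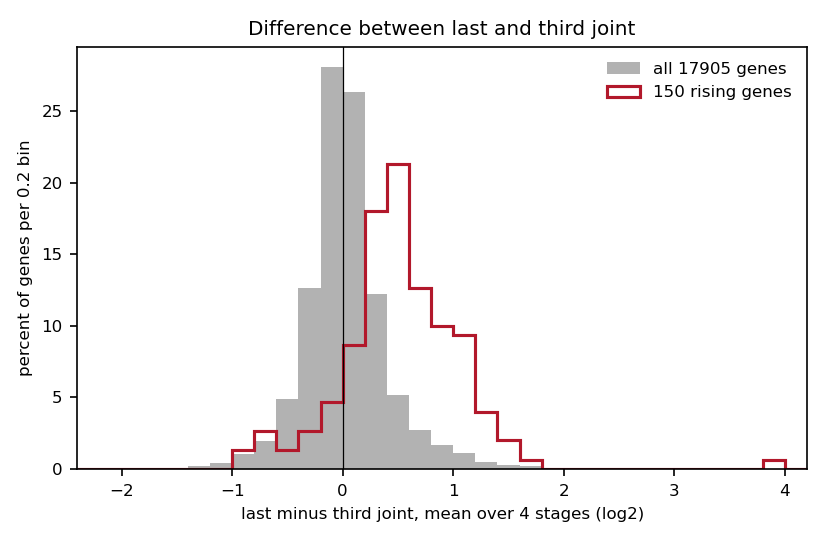
Distribution of the difference of the last minus the third joint (log2, mean over 4 stages) in bins of 0.2, as percent of genes, for the 150 rising genes (red line) and all 17905 genes (grey). The members are shifted to the right, with a median of 0.51 against 0.003, and MADS15 stands alone at 3.87. The 1877 other genes called rising from stage 2 to 4, not drawn apart, had a median of 0.34.

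The steps themselves differed between positions. A limma F-test over 6 contrasts (3 steps, each compared between positions), which is independent of the position averages that chose the genes, called 45 of 150 members at an adjusted p under 0.05, or 30%, against 9.18% of all genes. Among the 1877 other genes called rising from stage 2 to 4, 384 or 20.5% were called. Over all members, the median steps were 1.40, 1.52 and 0.54 in the last joint, 1.53, 0.38 and 1.63 in the second, and 2.26, 0.95 and 0.79 in the third. The third joint made its largest step before maturity, the last joint was strong on opening, and the second joint had a small step on opening and its largest at senescence. In the second joint, 107 members were above 0 from stage 4 to 5, the lowest count of the 9 steps.

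One array of the second joint at stage 5 stood apart from the rest, with an upper quartile of 7.50 against 7.90 to 8.07 elsewhere. The members' median was 7.16 on that array and 7.80 on its replicate, against 8.69 to 8.82 in the last joint and 7.98 to 8.35 in the third at that stage. The other array to stand apart was replicate 2 of the third joint at stage 4. Without these 2 arrays 30 members had steps that differed, of which 25 were among the 45. Without either array of the last joint at stage 6 (29 and 28), replicate 1 of the second joint at stage 4 (28) or either array of the third joint at stage 5 (28 and 28) the count was also lower by more than 1.5 times.

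**Figure D5:**
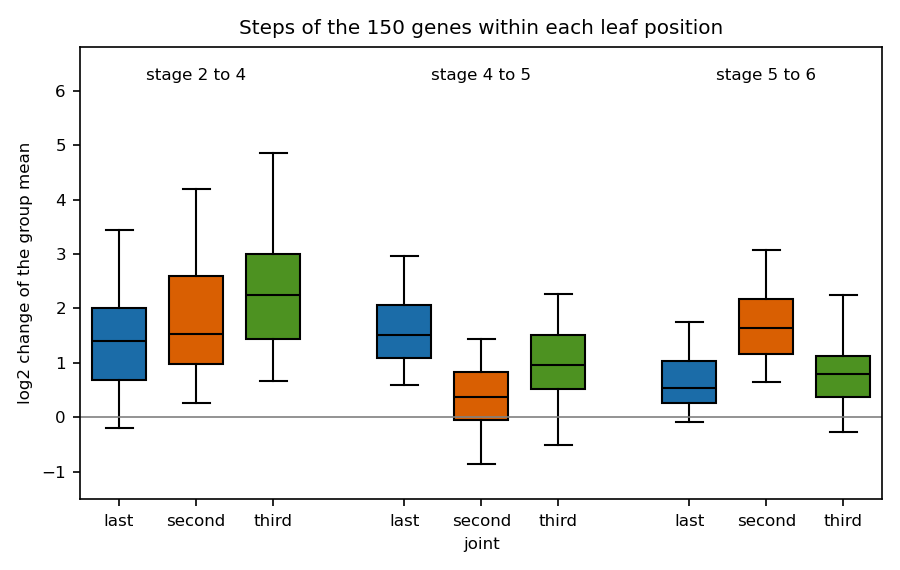
Change of the group mean (log2) for the 150 genes at each of 3 steps in each of the 3 leaf positions. Boxes span the quartiles with the median as a line, and whiskers the 5th to 95th percentiles. The second joint has the lowest box from stage 4 to 5 and the highest from stage 5 to 6.

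The smallest F-test values belonged to 5 genes without a descriptive name. LOC4330358 (adjusted p = 0.000588) read 6.77 and 7.55 in the last joint at stage 2, 3.87 and 4.66 in the second and 5.55 and 4.77 in the third. At stage 4 it read 9.16 and 8.42, 8.63 and 9.01, and 6.24 and 6.34 in the same order, and by stage 6 all positions lay between 9.96 and 10.47. The positions thus started and climbed apart and ended together. LOC4349181 (adjusted p = 0.00118) was at 6.12 and 6.14 in the third joint at stage 4, where the last joint read 4.14 and 4.26. At stage 5 the last joint led with 7.70 and 8.14 and the second joint was lowest with 5.17 and 4.76.

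LOC4344081 (adjusted p = 0.00279) and LOC4337447 (adjusted p = 0.00286) shared a low start in the third joint. LOC4337447 read 6.78 and 7.07 there at stage 2, against 10.71 and 10.06 in the last joint and 11.66 and 9.76 in the second, and all positions lay between 12.78 and 13.08 at stage 6. LOC4331893 (adjusted p = 0.00187) averaged 6.70 in the second joint at stage 5, after 7.38 at stage 4. All 5 kept the call when any single array was left out.

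Of the named members, 9 were called by the F-test. HSP24.1 (adjusted p = 0.00368) alternated: the second joint read 9.32 and 8.72 at stage 4, 6.23 and 5.60 at stage 5, and 10.47 and 11.15 at stage 6. In the last joint it read 7.76 and 6.35 at stage 2, and 5.90 and 6.21 at stage 4. The pairs of arrays lay close together within most groups, so the drop on opening in the second joint was present on both arrays. U2AF35A (adjusted p = 0.0107) took a like course in the second joint, with 10.41 and 10.48 at stage 4 and 9.4 and 9.31 at stage 5. MADS1 (adjusted p = 0.00902) ended at 8.44 and 8.44 in the last joint, above 7.06 and 6.95 in the second and 6.64 and 6.69 in the third. OSH71 (adjusted p = 0.0135) started lower in the third joint, at 5.08 and 4.83, than in the last (6.2 and 6.22) and the second (6.77 and 6.12).

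NAAT1 (adjusted p = 0.0156), GH3-8 (adjusted p = 0.0323) and AOX1a (adjusted p = 0.0326) had a low level in the third joint at stage 2 in common. MADS15 (adjusted p = 0.0306) and OsCASPL1U2 (adjusted p = 0.0365) completed the 9. The NAAT1 call was lost without replicate 1 of the third joint at stage 2 (adjusted p = 0.0741). Those of GH3-8, AOX1a, MADS15 and OsCASPL1U2 were lost without any 1 of 8, 10, 10 and 14 arrays.

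A measure of RNA quality moved with the stages. The array's Gapdh control is read near both ends of the transcript, and its 3′ reading minus its 5′ reading lay between 1.47 and 2.09 at stage 2, between 1.81 and 3.78 at stage 4, between 1.81 and 3.33 at stage 5 and between 3.0 and 3.41 at stage 6. At stage 4 the highest value apart from replicate 2 of the third joint was 2.07, and at stage 5 the last joint had 2.93 and 3.33 where the other positions had 1.81 to 2.02. With this difference as a covariate, an alternative chosen after seeing the data, the members' median steps were 1.57, 0.85 and 0.93, 146 of 150 members had all steps above 0 and 107 stayed among the 150 highest scores. The covariate was fitted mainly on 1 pair of arrays, since 88.1% of its spread within groups lay in the third joint at stage 4.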

How the data were processed

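Biotin-labelled RNA from hand-cut tissue was put on Affymetrix rice genome arrays in 1 colour, as the labels' protocols state. Each deposited value is the log2 expression of 1 probe set, and RMA was the authors' normalisation according to the submitters' processing notes. Which version, background setting and chip definition RMA was run with is not given in the sources used. Array medians lay between 5.07 and 5.17, and no further scaling was applied. Of 57381 probe sets, 123 controls were left out and 57258 were tested. By the platform annotation and the RefSeq gene table of assembly ASM3414082v1, 22436 match 1 gene, 95 several and 34727 none. The brightest probe set stands for each of 17905 genes. No coordinates and no sequences are given, and promoter motifs were not analysed here.

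One linear model in limma 3.58.1 (R 4.3.3) had a mean for each of 13 groups and no block, leaving 13 residual degrees of freedom (prior degrees of freedom 3.52, prior SD 0.206). Tests are two-sided. A gene is called at least 2-fold apart with an adjusted p (Benjamini-Hochberg, all probe sets) under 0.05, without a fold limit for the F-test. The model was tested on simulated data. The members, gene lists and comparisons were chosen with earlier results of these data known. Named are the 30 members with a descriptive symbol, the 10 highest scores, the 5 largest called differences per comparison and direction, the 5 smallest F-test values, the genes on both sides of the boundary and members of lists; LOC4324873, and genes named as examples from lists, were chosen after their values were seen. Same-numbered replicates of 78 group pairs had deviations that correlated between -0.31 and 0.55 (median 0.04), over 0.1 in 24 pairs. Since not every pair was over 0.1 and the labels give the number no meaning, samples were not treated as paired. Alternatives were single arrays left out, a replicate block, quantile normalisation, median scaling, a filter on dim probe sets, the Gapdh covariate, omission of the 2 arrays that stand apart, other samples or fold limits for the leaf comparison and other forms of the score.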

Additional observations from a re-analysis of the deposited data

Results flagged for a closer look

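Steps that differed between the leaf positions by the F-test were the one kind of result singled out for a closer look, since groups of 2 arrays are too small to test for an outlying sample. This held for 45 of the 150 genes. The genes with the smallest adjusted p-values (limma F-test) were LOC4330358 (0.000588), LOC4349181 (0.00118), LOC4331893 (0.00187), LOC4344081 (0.00279) and LOC4337447 (0.00286). Of the 45, 9 were also called higher in the last than in the third joint. That call was made in 19 of all 150 members (12.7%) and in 1.57% of all genes. How often both calls met among all genes was not counted, so nothing is read from the 9. Why the steps differ was not tested.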

How the results depend on the processing

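The alternatives were followed for 44 results of named genes, all of them called in the main fit. No difference among these changed direction, and the F-test results have no direction to change. Of the 44 results, 19 kept the call in every alternative, and of 1429 values under alternatives 187 lost it. For joint against leaf, 35 members were called; the count was 19 to 38 with single arrays left out and 4 with limma's treat at the 2-fold limit. The 19 calls of the last against the third joint became 11 to 27 with single arrays left out. The 5 calls of the last against the second joint became 1 to 8, and 3 with the Gapdh covariate. The 3 calls of the second against the third joint became 0 to 6, and 1 both without the 2 arrays that stand apart and with the Gapdh covariate. The 45 members with differing steps became 28 to 63 with single arrays left out, and 30 with the Gapdh covariate. Of the 150 members, 120 to 147 stayed with single arrays left out, and 67 stayed when the score was the smallest of the 9 steps within positions. The causes of these shifts were not tested.

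With the replicate number as a block, 34 members were called for joint against leaf, 19 for the last against the third joint, 6 for the last against the second, 4 for the second against the third, and 49 for differing steps. The samples share only a number. Many members start near the low end of the array's range, where signal over background limits how well their first step is measured, and 2 arrays per group limit every comparison.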
